A study of Mus musculus with 12 samples.

Results

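The genes described here are 37 mouse genes of glucose metabolism: carriers for glucose and lactate, the enzymes of glycolysis, lactate dehydrogenase subunits, pyruvate dehydrogenase kinases, enzymes of fructose bisphosphate turnover, and the main enzymes of the pentose phosphate pathway. They were chosen by symbol, through the RefSeq transcript to which each array probe was designed, and all 37 were among the 24457 genes tested. RNA was measured on 12 single-colour arrays in 4 groups of 3, and every sample is labelled as a mouse embryonic stem cell line grown on gelatin. The groups cross genotype with medium: Nat1-null cells were given 2i+LIF or LIF, and so were wild-type cells, so that all 4 received LIF and the 2i+LIF groups received 2i in addition. Nat1 is here read as Eif4g2 under an older name, which codes for a translation factor of the eIF4G family. LIF is a cytokine that holds mouse embryonic stem cells in self-renewal, and 2i is the usual name for a pair of inhibitors of the kinases MEK and GSK3. The labels do not say which part of Nat1 was removed, whether the Nat1-null cells are 1 clone, or whether the replicates are separate cultures; p-values here rest on the spread among these 12 arrays, which may be technical.

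Glycolysis splits glucose into pyruvate in the cytosol. Its upper part spends ATP to make triose phosphates and its lower part returns ATP and NADH, which lactate dehydrogenase recycles by turning pyruvate into lactate. Pyruvate dehydrogenase kinases hold back the use of pyruvate in the mitochondria by inhibiting pyruvate dehydrogenase. The pentose phosphate pathway branches off at glucose 6-phosphate to make NADPH and ribose. Pluripotent cells are known for rapid glycolysis, and many glycolytic genes are known targets of hypoxia-inducible factors.

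Levels are log2 signals, with the array's 75th percentile set to zero, and a log2 difference of 1 is 2-fold. Differences were tested with limma across all 24457 genes, and a gene was called at a Benjamini-Hochberg adjusted p below 0.05. Of these genes 15418 had a gene symbol. The others, known by an array identifier alone, also count in the shares of all genes called. Errors on differences are standard errors with 3 arrays per group. A probe's level is not comparable with that of another probe, so levels are compared between arrays within a gene, or within the same list of probes. A lower level in RNA from many cells cannot tell fewer cells of a type from less RNA per cell.

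The targeted gene, Eif4g2, read 1.24, 1.28 and 1.42 in Nat1-null 2i+LIF and 1.32, 1.26 and 1.25 in Nat1-null LIF, against 4.23, 4.09 and 4.29 in wild-type 2i+LIF and 4.54, 4.49 and 4.44 in wild-type LIF. Its groups did not overlap between genotypes, and the difference was -3.21 in LIF and -2.89 in 2i+LIF. Between 49.8% and 66.3% of spots were well above background on each array, and 36 of the 37 members were so on all 12 arrays (Fbp2 on 11). The Nat1-null arrays shared 1 slide, and the wild-type arrays filled 1 slide for each medium, so slide cannot be told apart from genotype, or from medium in wild-type cells. The 2i comparison in Nat1-null cells lies within 1 slide, where medium largely goes with the row of the array. Embryonic stem cell markers were high in all groups, with a summed log2 level of 9.62 to 9.77 and 9.64 to 9.86 in Nat1-null cells in 2i+LIF and LIF, 9.67 to 9.80 in wild-type 2i+LIF and 9.06 to 9.11 in wild-type LIF. Summed levels of the 11 measured fibroblast and contractile markers were 7.59 to 7.68, 6.92 to 7.12 and 7.37 to 7.45 in the first 3 of these groups, against 8.80 to 8.88 in wild-type LIF. A summed level follows the brightest probes of its list, which for the embryonic stem cell markers was Dppa5a in all groups. Among the fibroblast and contractile markers, Fn1 was brightest in the 3 groups other than wild-type LIF, averaging 7.38, 6.69 and 6.96. In wild-type LIF Tagln was brightest (7.24) and Fn1 averaged 5.79, so Fn1 went in the opposite direction to most of the list. Col1a1, Acta2 and Dcn averaged -1.76 or less in each of those 3 groups, against 4.10, 6.30 and 1.02 in wild-type LIF. Neural markers summed to 2.07 to 2.52 and 3.25 to 3.84 in Nat1-null cells in 2i+LIF and LIF, 3.48 to 3.62 in wild-type 2i+LIF and 4.94 to 4.99 in wild-type LIF. Primitive endoderm markers summed to 1.19 to 1.64 and 2.32 to 3.19 in Nat1-null cells in 2i+LIF and LIF, 1.55 to 1.67 in wild-type 2i+LIF and 2.53 to 2.69 in wild-type LIF. Replicate 2 of the Nat1-null LIF group had the lowest of the array weights that limma estimated (0.177) and was the highest of its group for 27 of the 37 members, against 34.8% of all genes. Replicate 2 of the Nat1-null 2i+LIF group had the next lowest weight (0.346) and was the highest of its group for 25 members, against 33.5% of all genes.

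In wild-type cells, the glucose metabolism genes were mostly higher in 2i+LIF than in LIF. Of the 37 members, 29 rose and 3 fell, that is 78.4% and 8.11%, while 35.0% of all genes tested rose and 27.2% fell. Among the 18993 genes well above background on all 12 arrays, 43.0% rose and 24.4% fell. The median log2 difference of the members was 0.85, against 0.06 over all genes, and 17 members rose and 2 fell by at least 2-fold. Counts at 2-fold, here and below, were not made over all genes and so do not compare the members with other genes. The 3 arrays of each group did not overlap for 31 members higher and 3 lower, against 41.8% and 34.8% of all genes. The carriers (4 of 4), the hexokinases and upper glycolysis (9 of 9), the lactate dehydrogenases (2 of 2) and the pyruvate dehydrogenase kinases (4 of 4) all rose. In lower glycolysis 6 rose, while Eno3 and Pgam2 fell. Without scaling between arrays the split was 18 higher and 11 lower, against 9.15% and 62.3% of all genes; 33 of 37 members then lay above the all-gene median, which had itself moved by -0.57. Of 11 fibroblast and contractile markers, 1 (Fn1) was higher and 9 lower in wild-type 2i+LIF than in wild-type LIF, 5 of 6 neural and 5 of 8 primitive endoderm markers were lower, and 6 of 10 embryonic stem cell markers were higher; their part in the members' differences was not tested.

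Nat1-null cells in LIF also had higher levels than wild-type cells in LIF. There 22 members rose (59.5%) and 4 fell (10.8%), while 33.9% of all genes rose and 32.9% fell. Among genes well above background on all 12 arrays, 41.7% rose and 28.9% fell. The members' median was 0.66, against 0.02 over all genes, and 16 rose and 2 fell by at least 2-fold. Groups did not overlap for 23 members higher and 4 lower, against 36.6% and 36.2% of all genes. The 4 pentose phosphate genes were not called, with adjusted p between 0.11 and 0.55. Without scaling, 21 members were higher and 8 lower, against 25.5% and 39.4% of all genes. This comparison and the 2i comparison in wild-type cells use the same 3 wild-type LIF arrays, and 10 of 11 fibroblast and contractile markers were lower in Nat1-null LIF cells, with Fn1 higher. Of the neural markers 4 of 6 were lower and 2 higher, and 9 of 10 embryonic stem cell markers were higher; the part of these markers was not tested. Without Nat1-null LIF replicate 2, 23 members rose and 6 fell, against 35.0% and 32.7% of all genes. The level of 27 of 37 members was lowest, as a group mean, in wild-type LIF, a count that was not made over all genes.

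In 2i+LIF, 18 members were higher and 7 lower in the Nat1-null group against the wild-type group, that is 48.6% and 18.9%, while 21.0% of all genes rose and 22.6% fell. Among genes well above background on all 12 arrays, 26.7% rose and 22.2% fell. The members' median was 0.32, against -0.01 over all genes, and 4 rose and 4 fell by at least 2-fold. Arrays of the 2 groups were apart for 23 members higher and 9 lower, against 28.0% and 29.3% of all genes. Hk2, Pfkl, Pdk2 and Pfkfb4 were the 4 that rose that far, and Eno2, Ldhb, Fbp1 and Fbp2 were the 4 that fell. The wild-type LIF arrays enter this comparison through the shared variance and the filter and choice of probes, and not through the means compared. Of the 11 fibroblast and contractile markers 3 were higher and 4 lower, and of the 6 neural markers 4 were lower and none higher (median -0.88); their part was not tested. Without scaling, 25 members were higher and 4 lower, against 40.5% and 12.9% of all genes. The calls of Slc2a3, Pgam1, Eno2, Pkm, Ldha and Pgd ended when 1 array was left out. Leaving out 1 array gave 14 to 22 members higher, against 17.5% to 23.6% of all genes.

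In Nat1-null cells, 2i+LIF against LIF raised 21 members and lowered 4, that is 56.8% and 10.8%, while 21.4% of all genes rose and 15.8% fell. Among genes well above background on all 12 arrays, 27.1% rose and 17.4% fell. The differences were small: the median was 0.24, against 0.05 over all genes, and only Pfkm and Pfkfb3 changed by at least 2-fold. No overlap was found for 21 members higher and 4 lower, against 26.1% and 17.5% of all genes. All 4 pentose phosphate genes rose, and so did 7 of 9 genes of the hexokinase and upper glycolysis group. Of the 11 fibroblast and contractile markers, 4 were higher and 1 lower. Neural markers were lower for 4 of 6 and higher for 1 (median -1.44), primitive endoderm markers lower for 4 of 8 and higher for 2, and embryonic stem cell markers lower for 6 of 10 and higher for 2; the part of these markers was not tested. The count of 21 depended on the processing. It was 13 without Nat1-null LIF replicate 3 and 13 without Nat1-null 2i+LIF replicate 3, where 18.8% and 17.5% of all genes rose. It was 10 (with 4 lower) after quantile normalization, where 16.2% of all genes rose, and 7 when the variance came from these 6 arrays alone, where 10.8% of all genes rose. Without scaling 6 rose and 6 fell, against 7.81% and 27.5% of all genes. Only replicate 3 of Nat1-null LIF shared a slide row with the 3 arrays of Nat1-null 2i+LIF, too few to count calls within 1 row. Replicates 1 and 2 of Nat1-null LIF lay in the other row, with 63.4% and 60.7% of spots well above background. That share was 52.5% for replicate 3 and 49.8% to 55.1% for the Nat1-null 2i+LIF arrays. Medium and slide row thus largely went together, and their parts cannot be told apart here.

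**Figure D1:**
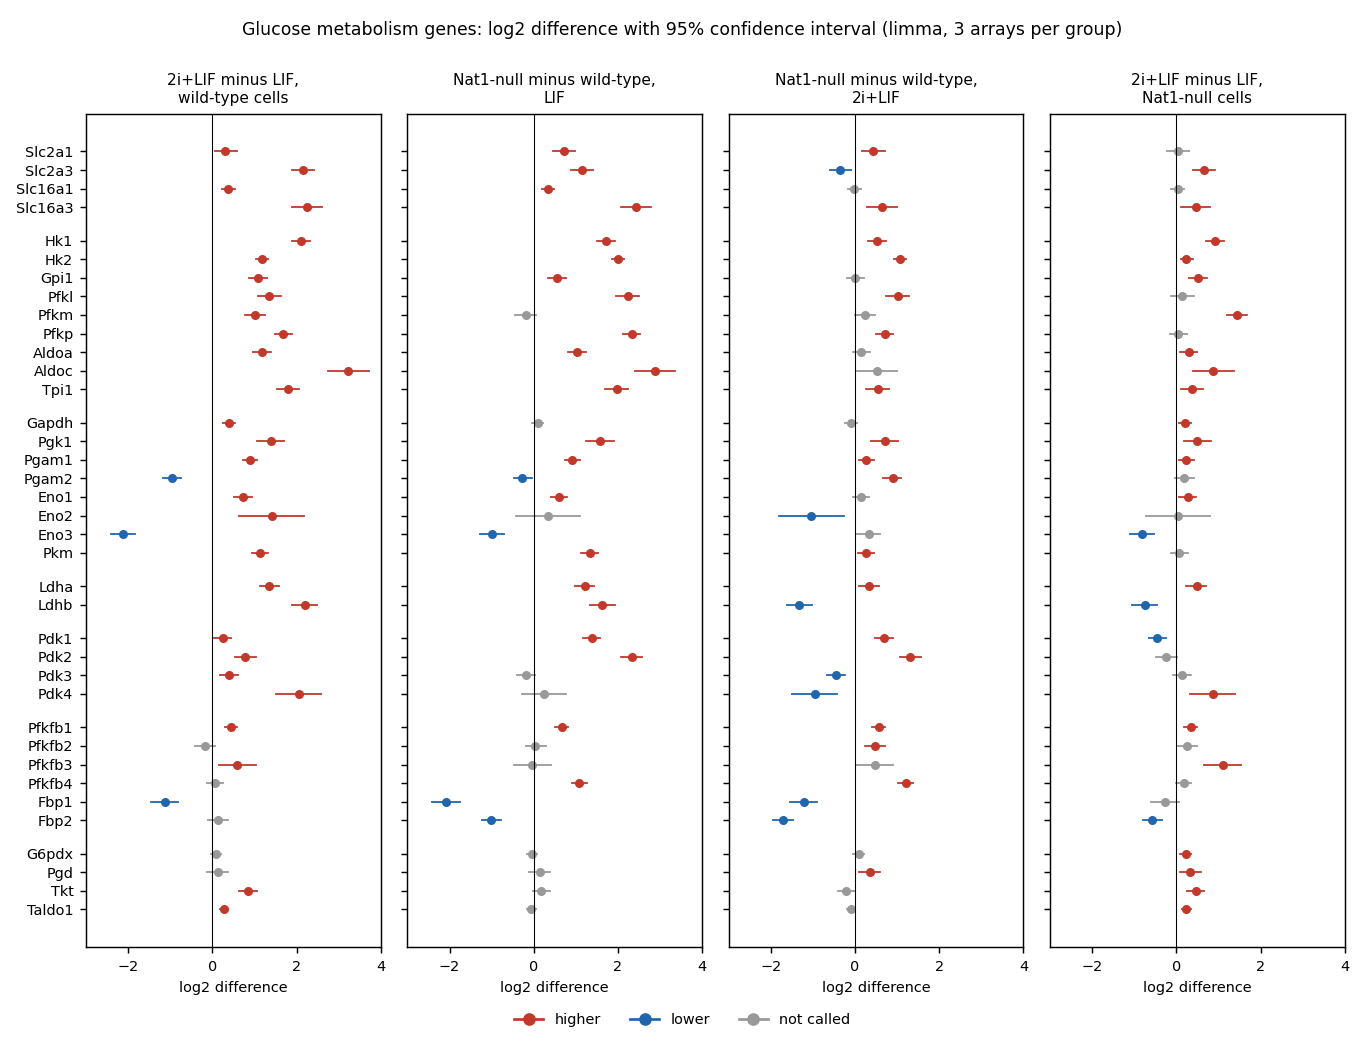
Log2 differences of the 37 members (rows, grouped by role, from carriers at the top to pentose phosphate genes at the bottom) in 4 comparisons (panels), each point with its 95% confidence interval from limma and coloured by its call. In wild-type cells 29 members lie to the right as higher in 2i+LIF, with Eno3, Pgam2 and Fbp1 to the left, and the differences between media in Nat1-null cells are smaller, with a median of 0.24.

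Promoters of 5 members are shown because these genes include the largest rise (Aldoc), the largest fall (Eno3), and 3 that also rose and act between triose phosphate and lactate export (Pgk1, Ldha, Slc16a3). Each runs from 250 bases before to 50 bases after a RefSeq start, 5′ to 3′, in build GRCm38.p6. Aldoc and Ldha have 2 starts each, and the start with the most ACGTG matches is shown. Capitals mark ACGTG and GCGTG on either strand, the core letters of the element that hypoxia-inducible factors bind; on the opposite strand they read CACGT and CACGC. Aldoc lies at chr11:78322823-78323122, Eno3 at chr11:70656926-70657225, Ldha at chr7:46845554-46845853, Pgk1 at chrX:106186850-106187149 and Slc16a3 at chr11:120948817-120949116, all on the plus strand.
Aldoc: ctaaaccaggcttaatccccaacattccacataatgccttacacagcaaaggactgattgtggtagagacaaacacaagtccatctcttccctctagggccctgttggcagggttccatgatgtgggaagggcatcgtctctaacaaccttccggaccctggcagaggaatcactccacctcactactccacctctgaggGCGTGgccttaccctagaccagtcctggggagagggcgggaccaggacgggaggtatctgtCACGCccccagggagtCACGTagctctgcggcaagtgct
Pgk1: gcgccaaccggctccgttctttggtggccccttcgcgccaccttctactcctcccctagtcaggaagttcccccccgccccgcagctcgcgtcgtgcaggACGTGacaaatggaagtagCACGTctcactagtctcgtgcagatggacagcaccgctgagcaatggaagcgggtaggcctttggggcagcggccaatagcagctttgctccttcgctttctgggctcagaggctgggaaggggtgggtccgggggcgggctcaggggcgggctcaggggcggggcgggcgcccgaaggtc
Ldha: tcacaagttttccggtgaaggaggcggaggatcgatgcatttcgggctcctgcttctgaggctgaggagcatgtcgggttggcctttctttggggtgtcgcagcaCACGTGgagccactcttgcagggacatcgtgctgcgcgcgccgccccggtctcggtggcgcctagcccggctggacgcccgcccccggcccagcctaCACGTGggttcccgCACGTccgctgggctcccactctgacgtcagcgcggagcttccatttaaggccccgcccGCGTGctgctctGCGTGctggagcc
Slc16a3: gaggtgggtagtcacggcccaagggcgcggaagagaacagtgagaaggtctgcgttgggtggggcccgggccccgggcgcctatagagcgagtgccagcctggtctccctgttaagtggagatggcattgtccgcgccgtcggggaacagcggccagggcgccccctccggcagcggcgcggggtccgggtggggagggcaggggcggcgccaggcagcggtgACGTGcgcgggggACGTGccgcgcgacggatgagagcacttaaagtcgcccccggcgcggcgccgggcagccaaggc
Eno3: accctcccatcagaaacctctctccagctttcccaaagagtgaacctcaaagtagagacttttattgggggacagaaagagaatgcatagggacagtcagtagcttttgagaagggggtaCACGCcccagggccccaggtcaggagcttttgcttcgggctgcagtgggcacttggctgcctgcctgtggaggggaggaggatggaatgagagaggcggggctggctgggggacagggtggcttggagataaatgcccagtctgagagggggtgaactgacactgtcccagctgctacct
The Ldha promoter shown holds 5 ACGTG and 2 GCGTG matches. At 2 of its sites the letters form the palindrome CACGTG, which contains ACGTG on both strands and so counts there 2 times. Pgk1 and Slc16a3 hold 2 ACGTG each, Aldoc 1 ACGTG and 2 GCGTG, and Eno3 1 GCGTG. The Ldha start not shown has 0 ACGTG and 2 GCGTG, and that of Aldoc has 0 ACGTG and 1 GCGTG. Tpi1, Gpi1 and Eno2, which also rose with 2i in wild-type cells, have neither motif. The same holds for Pgam2 and Fbp1, which fell. RefSeq gave 56 promoters for 36 of the members. ACGTG was found in 23 of these 56 (41.1%), against 19.6% of all 32851 promoters of that length. GCGTG was found in 30 (53.6%), against 32.4%, and CACGTG in 7 (12.5%), against 7.15%. Either motif was found in 41 of the 56 (73.2%), against 43.8%. By gene, 31 of 36 members (86.1%) had ACGTG or GCGTG in at least 1 promoter, against 46.7% of 27025 genes, and the members have more promoters per gene than all genes do. These matches describe letters and were not tested as binding sites, and the shares were not matched for base composition.

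Glucose enters through Slc2a1 and Slc2a3 (GLUT1 and GLUT3), and lactate crosses the membrane through Slc16a1 and Slc16a3 (MCT1 and MCT4). The levels of Slc2a3 were 7.43, 7.69 and 7.55 in Nat1-null cells in 2i+LIF and 6.81, 7.15 and 6.73 in LIF, against 7.80, 7.86 and 8.04 in wild-type cells in 2i+LIF and 5.72, 5.71 and 5.81 in LIF. The 4 groups did not overlap, with wild-type 2i+LIF highest and wild-type LIF lowest. Slc2a3 differed by 0.66 (adjusted p = 0.0017) for 2i in Nat1-null cells, by 2.15 ± 0.12 (adjusted p = 2.8e-07) for 2i in wild-type cells, and by 1.15 (adjusted p = 1.1e-05) for Nat1-null against wild-type in LIF. In 2i+LIF it was lower in Nat1-null cells, with a difference of -0.35 ± 0.12 (adjusted p = 0.035), a call that ended without 1 of 4 arrays. In Nat1-null cells Slc16a3 measured 5.81, 5.96 and 5.91 in 2i+LIF and 5.38, 5.72 and 5.20 in LIF, and in wild-type cells 5.20, 5.14 and 5.40 in 2i+LIF and 2.78, 2.89 and 3.31 in LIF. Wild-type LIF stood far below the other groups, and the replicates of Nat1-null LIF spread into those of wild-type 2i+LIF. Slc16a3 rose by 2.25 ± 0.16 (adjusted p = 1.6e-06) with 2i in wild-type cells and by 2.44 ± 0.16 (adjusted p = 5e-07) in Nat1-null against wild-type cells in LIF. Slc2a1 read 7.05, 7.38 and 7.19 in Nat1-null 2i+LIF, 7.10, 7.41 and 7.02 in Nat1-null LIF, 6.72, 6.69 and 6.90 in wild-type 2i+LIF and 6.42, 6.40 and 6.54 in wild-type LIF. Both Nat1-null groups lay above both wild-type groups. The genotype difference of Slc2a1 was 0.43 ± 0.12 (adjusted p = 0.013) in 2i+LIF and 0.72 ± 0.12 (adjusted p = 0.00035) in LIF, while its 2i difference in wild-type cells (0.31, adjusted p = 0.039) lost its call without 1 of 5 arrays and was -0.25 without scaling. The levels of Slc16a1 were -2.95, -2.90 and -3.03 in Nat1-null cells in 2i+LIF and -3.02, -2.92 and -3.04 in LIF, against -2.83, -2.95 and -3.05 in wild-type cells in 2i+LIF and -3.30, -3.35 and -3.32 in LIF. This probe was dim but well above background throughout. Slc16a1 was lowest in wild-type LIF, with 0.38 ± 0.07 (adjusted p = 0.00064) for 2i in wild-type cells and 0.33 ± 0.07 (adjusted p = 0.0013) for genotype in LIF; the first was -0.19 without scaling.

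Hexokinases phosphorylate glucose, phosphofructokinases commit it to glycolysis, and aldolases split the product. In Nat1-null cells Hk2 measured 5.13, 5.12 and 5.18 in 2i+LIF and 4.89, 4.84 and 4.97 in LIF, and in wild-type cells 4.08, 3.98 and 4.18 in 2i+LIF and 2.84, 2.94 and 2.93 in LIF. The 4 groups were separate, with the Nat1-null groups on top. Hk2 differed by 1.06 ± 0.06 (adjusted p = 1.6e-06) between genotypes in 2i+LIF, by 2.00 ± 0.06 (adjusted p = 5.4e-09) between genotypes in LIF and by 1.18 ± 0.06 (adjusted p = 3.1e-07) for 2i in wild-type cells. Hk1 read 4.66, 4.74 and 4.64 in Nat1-null 2i+LIF, 3.65, 3.99 and 3.63 in Nat1-null LIF, 4.22, 4.05 and 4.18 in wild-type 2i+LIF and 2.00, 2.08 and 2.07 in wild-type LIF. For Hk1 the 2i difference was 0.92 ± 0.10 (adjusted p = 6.7e-05) in Nat1-null and 2.10 ± 0.10 (adjusted p = 1e-07) in wild-type cells, and both media gave a higher level in Nat1-null cells (0.53 in 2i+LIF and 1.71 in LIF). The levels of Pfkl were 2.58, 2.89 and 2.64 in Nat1-null cells in 2i+LIF and 2.62, 2.72 and 2.33 in LIF, against 1.77, 1.52 and 1.76 in wild-type cells in 2i+LIF and 0.26, 0.30 and 0.44 in LIF. In Nat1-null cells Pfkp measured 3.97, 4.09 and 4.04 in 2i+LIF and 4.04, 4.13 and 3.77 in LIF, and in wild-type cells 3.33, 3.25 and 3.43 in 2i+LIF and 1.66, 1.67 and 1.64 in LIF. Pfkl and Pfkp, the liver-type and platelet-type phosphofructokinases, had overlapping levels in the 2 Nat1-null media and were lowest in wild-type LIF. Genotype differences were 1.02 ± 0.12 (adjusted p = 0.00011) for Pfkl and 0.70 ± 0.09 (adjusted p = 0.00018) for Pfkp in 2i+LIF, and 2.23 ± 0.12 (adjusted p = 1.5e-07) and 2.33 ± 0.09 (adjusted p = 1.6e-08) in LIF. Pfkm read 3.28, 3.26 and 3.18 in Nat1-null 2i+LIF, 1.68, 2.10 and 1.60 in Nat1-null LIF, 3.00, 3.01 and 2.99 in wild-type 2i+LIF and 1.97, 2.00 and 2.00 in wild-type LIF. The muscle type, Pfkm, followed the medium instead: 2i+LIF was 1.44 above LIF in Nat1-null cells (adjusted p = 8.9e-06) and 1.01 above it in wild-type cells (adjusted p = 2.6e-05). Its genotype differences of 0.24 in 2i+LIF and -0.19 in LIF were not called.

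The levels of Aldoc were 6.03, 6.37 and 6.13 in Nat1-null cells in 2i+LIF and 5.10, 5.82 and 4.98 in LIF, against 5.65, 5.47 and 5.85 in wild-type cells in 2i+LIF and 2.25, 2.33 and 2.68 in LIF. The other 9 arrays read 4.98 or more, against 2.68 at most in wild-type LIF. Aldoc, the brain-type aldolase, had the largest rise of any member, 3.23 ± 0.22 (adjusted p = 1.1e-06) (9.40-fold) for 2i in wild-type cells and 2.88 ± 0.22 (adjusted p = 1.3e-06) (7.35-fold) for Nat1-null against wild-type in LIF. In 2i+LIF its genotype difference of 0.52 (adjusted p = 0.076) was not called. In Nat1-null cells Aldoa measured 9.27, 9.34 and 9.32 in 2i+LIF and 9.03, 9.20 and 8.83 in LIF, and in wild-type cells 9.08, 9.12 and 9.29 in 2i+LIF and 7.96, 7.97 and 8.05 in LIF. Aldoa, the widespread aldolase, showed the same low wild-type LIF group, with 1.17 ± 0.09 (adjusted p = 3e-06) for 2i in wild-type cells and 1.03 ± 0.09 (adjusted p = 4.6e-06) for genotype in LIF. Gpi1, glucose 6-phosphate isomerase, rose by 0.52 and 1.08 with 2i in Nat1-null and wild-type cells and by 0.56 with genotype in LIF. Tpi1, triose phosphate isomerase, rose in all 4 comparisons, by 0.37 and 1.80 for 2i in Nat1-null and wild-type cells and by 0.54 and 1.97 for genotype in 2i+LIF and LIF.

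**Figure D2:**
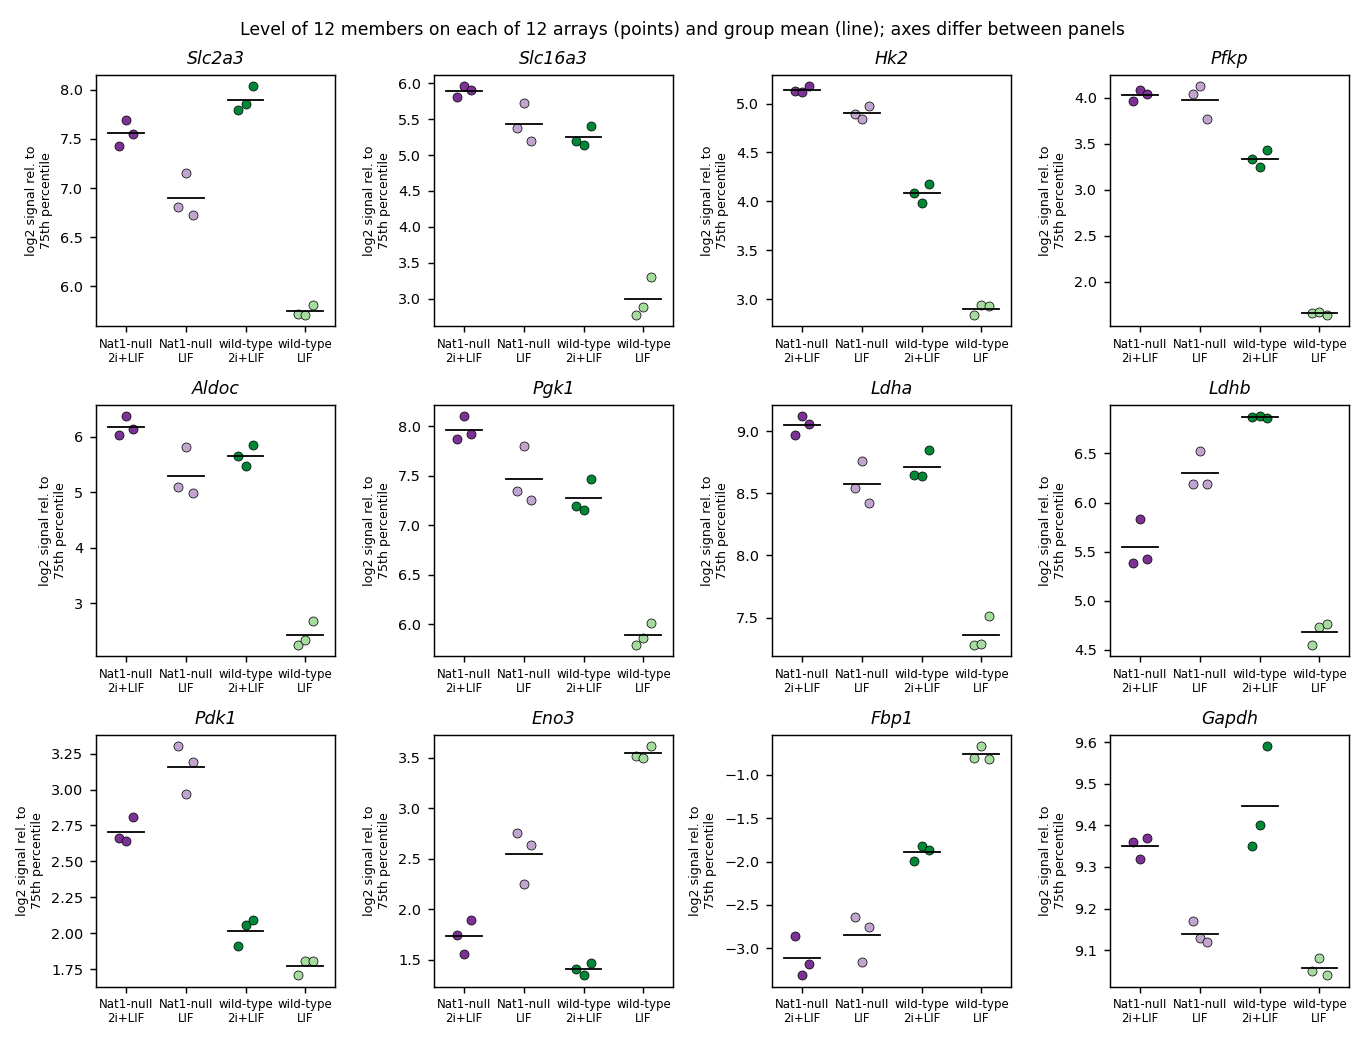
Level of 12 members (panels) on each of the 12 arrays, as log2 signal relative to the array's 75th percentile (vertical axis, scaled for each panel), with points for arrays and lines for the means of 3. Wild-type LIF is lowest for Slc2a3, Slc16a3, Hk2, Pfkp, Aldoc, Pgk1, Ldha, Ldhb, Pdk1 and Gapdh and highest for Eno3 and Fbp1.

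Lower glycolysis runs from glyceraldehyde phosphate to pyruvate. Pgk1 read 7.87, 8.10 and 7.92 in Nat1-null 2i+LIF, 7.34, 7.80 and 7.25 in Nat1-null LIF, 7.19, 7.15 and 7.47 in wild-type 2i+LIF and 5.79, 5.86 and 6.01 in wild-type LIF. Pgk1 codes for phosphoglycerate kinase, an ATP-making step, and its wild-type LIF arrays lay below all others. It rose by 1.39 ± 0.15 (adjusted p = 2.3e-05) with 2i in wild-type cells, and Nat1-null exceeded wild-type by 0.70 ± 0.15 (adjusted p = 0.0035) in 2i+LIF and by 1.58 ± 0.15 (adjusted p = 6.2e-06) in LIF. The levels of Pkm were 6.63, 6.83 and 6.70 in Nat1-null cells in 2i+LIF and 6.69, 6.71 and 6.54 in LIF, against 6.30, 6.46 and 6.60 in wild-type cells in 2i+LIF and 5.26, 5.31 and 5.38 in LIF. Pkm, pyruvate kinase, had 1.14 ± 0.09 (adjusted p = 3e-06) for 2i in wild-type cells and 1.33 ± 0.09 (adjusted p = 5.9e-07) for genotype in LIF, and in Nat1-null cells its 2i difference of 0.07 was not called. In Nat1-null cells Eno1 measured 8.35, 8.41 and 8.40 in 2i+LIF and 8.19, 8.24 and 7.94 in LIF, and in wild-type cells 8.12, 8.22 and 8.40 in 2i+LIF and 7.55, 7.50 and 7.52 in LIF. Eno1, the widespread enolase, rose by 0.72 ± 0.09 (adjusted p = 7.1e-05) with 2i in wild-type cells and by 0.60 ± 0.09 (adjusted p = 0.0002) with genotype in LIF. Pgam1, phosphoglycerate mutase, gave 0.90 and 0.92 in the same comparisons. Gapdh read 9.36, 9.32 and 9.37 in Nat1-null 2i+LIF, 9.17, 9.13 and 9.12 in Nat1-null LIF, 9.35, 9.40 and 9.59 in wild-type 2i+LIF and 9.05, 9.08 and 9.04 in wild-type LIF. By this probe Gapdh, often used as a constant control, was 0.40 higher in 2i+LIF than in LIF in wild-type cells (adjusted p = 0.00038), and -0.17 without scaling.

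Eno3 and Pgam2, the muscle forms of 2 lower glycolysis enzymes, fell with 2i in wild-type cells. The levels of Eno3 were 1.75, 1.56 and 1.89 in Nat1-null cells in 2i+LIF and 2.75, 2.25 and 2.64 in LIF, against 1.41, 1.35 and 1.47 in wild-type cells in 2i+LIF and 3.51, 3.50 and 3.61 in LIF. Eno3, muscle enolase, was highest in wild-type LIF without overlap. Its 2i difference was -0.82 ± 0.12 (adjusted p = 0.00075) in Nat1-null and -2.13 ± 0.12 (adjusted p = 4.9e-07) in wild-type cells, and its genotype difference in LIF was -0.99 ± 0.12 (adjusted p = 5.9e-05). In Nat1-null cells Pgam2 measured -0.47, -0.19 and -0.46 in 2i+LIF and -0.58, -0.38 and -0.73 in LIF, and in wild-type cells -1.27, -1.26 and -1.25 in 2i+LIF and -0.27, -0.33 and -0.30 in LIF. For Pgam2, muscle phosphoglycerate mutase, wild-type 2i+LIF was the low group, with -0.96 ± 0.10 (adjusted p = 1.7e-05) against wild-type LIF. Its genotype difference was 0.89 in 2i+LIF (adjusted p = 6.6e-05) and -0.27 in LIF (adjusted p = 0.033), and the second lost its call without 1 of 5 arrays. Contractile muscle genes such as Tagln and Myl9 were, like Eno3, highest in wild-type LIF (means of 3.14 and -0.59 in Nat1-null 2i+LIF, 2.80 and -0.25 in Nat1-null LIF and 2.65 and -0.83 in wild-type 2i+LIF, against 7.24 and 5.32 in wild-type LIF). For Pgam2 the wild-type LIF arrays overlapped those of Nat1-null 2i+LIF. The part of the contractile genes in the Eno3 and Pgam2 differences was not tested. Eno2, neuronal enolase, varied most between replicates, with 1.41 for 2i in wild-type cells (SE 0.34) and -1.04 for genotype in 2i+LIF (SE 0.34).

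Ldha and Ldhb code for the subunits of lactate dehydrogenase. Ldha read 8.97, 9.12 and 9.06 in Nat1-null 2i+LIF, 8.54, 8.76 and 8.42 in Nat1-null LIF, 8.65, 8.64 and 8.85 in wild-type 2i+LIF and 7.28, 7.29 and 7.51 in wild-type LIF. The wild-type LIF arrays were lowest and the Nat1-null 2i+LIF arrays highest, without overlap. Ldha rose by 0.48 ± 0.10 (adjusted p = 0.0055) with 2i in Nat1-null cells, by 1.35 ± 0.10 (adjusted p = 2.7e-06) with 2i in wild-type cells and by 1.21 ± 0.10 (adjusted p = 3.4e-06) with genotype in LIF. The levels of Ldhb were 5.38, 5.83 and 5.43 in Nat1-null cells in 2i+LIF and 6.19, 6.53 and 6.19 in LIF, against 6.87, 6.88 and 6.86 in wild-type cells in 2i+LIF and 4.55, 4.73 and 4.76 in LIF. Ldhb split the groups differently, with wild-type 2i+LIF highest, then Nat1-null LIF, then Nat1-null 2i+LIF, then wild-type LIF, and no overlap between any of them. Its 2i difference was -0.75 ± 0.13 (adjusted p = 0.0017) in Nat1-null cells and 2.19 ± 0.13 (adjusted p = 5.6e-07) in wild-type cells. Its genotype difference was -1.32 (adjusted p = 3.7e-05) in 2i+LIF and 1.62 (adjusted p = 2.5e-06) in LIF. Besides Ldhb, Pgam2 and Slc2a3 also had genotype calls of opposite direction in the 2 media, and Pdk1 had 2i calls of opposite direction in the 2 genotypes.

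Pyruvate dehydrogenase kinases inhibit pyruvate dehydrogenase and so hold back the use of pyruvate in the mitochondria. In Nat1-null cells Pdk1 measured 2.66, 2.64 and 2.81 in 2i+LIF and 3.30, 2.97 and 3.19 in LIF, and in wild-type cells 1.91, 2.06 and 2.09 in 2i+LIF and 1.71, 1.81 and 1.81 in LIF. Both Nat1-null groups lay above both wild-type groups. The genotype difference of Pdk1 was 0.68 ± 0.09 (adjusted p = 0.00022) in 2i+LIF and 1.38 ± 0.09 (adjusted p = 5.6e-07) in LIF, and with 2i it was -0.45 in Nat1-null cells (adjusted p = 0.0039). In wild-type cells the 2i difference of 0.25 (adjusted p = 0.037) lost its call without 1 of 5 arrays. Pdk2 read -0.34, -0.54 and -0.56 in Nat1-null 2i+LIF, -0.11, -0.19 and -0.41 in Nat1-null LIF, -1.66, -1.89 and -1.82 in wild-type 2i+LIF and -2.64, -2.39 and -2.68 in wild-type LIF. Pdk2 had the same order of genotypes without overlap, 1.31 ± 0.11 (adjusted p = 1.4e-05) in 2i+LIF and 2.33 ± 0.11 (adjusted p = 6.3e-08) in LIF. Pdk4 and Pdk3 did not follow: in 2i+LIF both were lower in Nat1-null cells, with differences of -0.96 and -0.45, and with 2i in wild-type cells they differed by 2.05 and 0.40.

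The Pfkfb enzymes make and break fructose 2,6-bisphosphate, an activator of phosphofructokinase, and Fbp1 and Fbp2 run the opposing step of gluconeogenesis. The levels of Pfkfb4 were 0.02, -0.04 and 0.01 in Nat1-null cells in 2i+LIF and -0.30, -0.15 and -0.10 in LIF, against -1.12, -1.21 and -1.28 in wild-type cells in 2i+LIF and -1.35, -1.34 and -1.11 in LIF. Pfkfb4 followed genotype, with 1.20 ± 0.08 (adjusted p = 3.8e-06) in 2i+LIF and 1.08 ± 0.08 (adjusted p = 1.5e-06) in LIF, and neither 2i difference was called. In Nat1-null cells Pfkfb3 measured 2.05, 2.51 and 2.26 in 2i+LIF and 0.89, 1.66 and 0.97 in LIF, and in wild-type cells 1.76, 1.68 and 1.97 in 2i+LIF and 1.12, 1.18 and 1.34 in LIF. Pfkfb3 followed the medium, with 1.10 ± 0.20 (adjusted p = 0.0018) for 2i in Nat1-null cells and 0.59 ± 0.20 (adjusted p = 0.024) in wild-type cells; the second lost its call without 1 of 3 arrays. Pfkfb1 was higher in each comparison, by 0.34 and 0.44 for 2i in Nat1-null and wild-type cells and by 0.56 and 0.66 for genotype in 2i+LIF and LIF. Pfkfb2 was called for genotype in 2i+LIF (0.48). Fbp1 read -2.86, -3.31 and -3.18 in Nat1-null 2i+LIF, -2.64, -3.16 and -2.75 in Nat1-null LIF, -1.99, -1.82 and -1.87 in wild-type 2i+LIF and -0.80, -0.67 and -0.82 in wild-type LIF. The levels of Fbp2 were -3.85, -3.49 and -3.62 in Nat1-null cells in 2i+LIF and -3.08, -3.02 and -3.14 in LIF, against -2.07, -1.83 and -1.93 in wild-type cells in 2i+LIF and -2.17, -1.93 and -2.11 in LIF. Fbp1 and Fbp2 were the 2 members called lower for genotype in both media, with Nat1-null arrays below all wild-type arrays. Fbp1 differed by -1.22 ± 0.15 (adjusted p = 0.00011) in 2i+LIF and -2.09 ± 0.15 (adjusted p = 8.2e-07) in LIF, and Fbp2 by -1.71 ± 0.10 (adjusted p = 1.6e-06) and -1.01 ± 0.10 (adjusted p = 1.3e-05). Fbp1 also fell with 2i in wild-type cells, by 1.13 (adjusted p = 8.7e-05).

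G6pdx and Pgd act in the oxidative branch of the pentose phosphate pathway, and Tkt and Taldo1 in the non-oxidative one. In Nat1-null cells G6pdx measured 3.49, 3.50 and 3.53 in 2i+LIF and 3.40, 3.21 and 3.26 in LIF, and in wild-type cells 3.38, 3.43 and 3.44 in 2i+LIF and 3.32, 3.33 and 3.33 in LIF. The wild-type LIF and Nat1-null LIF arrays of G6pdx overlapped, and the rise of G6pdx, the entry enzyme, with 2i in Nat1-null cells was 0.22 ± 0.06 (adjusted p = 0.012). Tkt read 6.03, 6.15 and 6.04 in Nat1-null 2i+LIF, 5.61, 5.66 and 5.57 in Nat1-null LIF, 6.34, 6.22 and 6.28 in wild-type 2i+LIF and 5.23, 5.62 and 5.45 in wild-type LIF. Tkt, transketolase of the non-oxidative branch, rose with 2i by 0.46 ± 0.09 (adjusted p = 0.0034) in Nat1-null cells and 0.85 ± 0.09 (adjusted p = 2.6e-05) in wild-type cells. Pgd and Taldo1, the genes of phosphogluconate dehydrogenase and transaldolase, rose by 0.33 and 0.24 with 2i in Nat1-null cells, and in wild-type cells Taldo1 rose by 0.28 while Pgd (0.13) was not called. The call of Pgd in Nat1-null cells ended without 1 of 9 arrays.

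The 2i difference was next compared between genotypes, as an interaction in the same fit. In Nat1-null cells it was smaller (or more negative) for 23 of 37 members (62.2%) and larger for 5 (13.5%), while over all genes 26.2% were lower and 23.6% higher. Among genes well above background on all 12 arrays, 31.8% were lower and 22.6% higher. The members' median was -0.66, against -0.03 over all genes. Of the 23, 22 had risen with 2i in wild-type cells. Ldhb had the largest interaction, -2.95 ± 0.19 (adjusted p = 1.5e-06), followed by Aldoc at -2.36 ± 0.30 (adjusted p = 0.00015), Slc16a3 at -1.79 ± 0.22 (adjusted p = 0.00012) and Pfkp at -1.64 ± 0.13 (adjusted p = 5.6e-06). At the other end Eno3 had 1.31 ± 0.18 (adjusted p = 0.0002), Pgam2 1.15 ± 0.14 (adjusted p = 8.9e-05) and Fbp1 0.86 ± 0.21 (adjusted p = 0.006), all of which had fallen with 2i in wild-type cells. Without scaling, 10 members were higher and 15 lower, against 42.0% and 11.5% of all genes. The wild-type media lay on different slides and the Nat1-null media shared a slide, so slide cannot be told apart from the interaction. The interaction includes the wild-type LIF arrays, in which the fibroblast and contractile markers were highest, and 9 of 11 of those markers were called higher in the interaction, while 8 of 10 embryonic stem cell markers were called lower; their part was not tested.

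**Figure D3:**
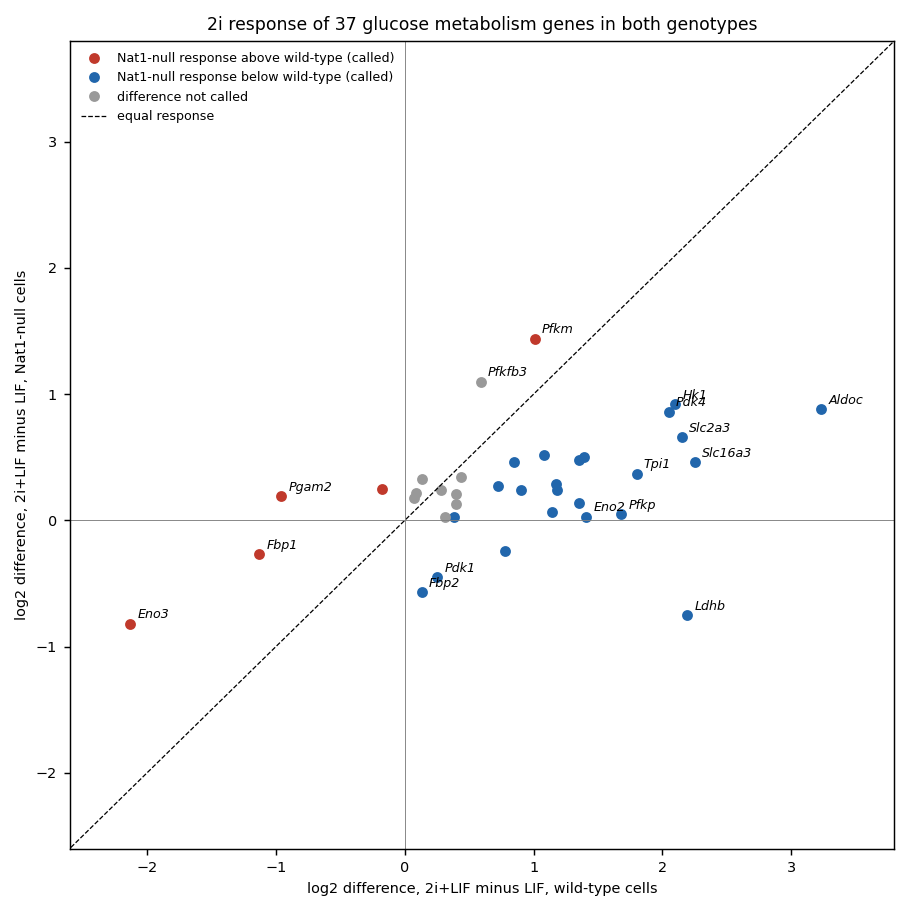
Log2 difference between 2i+LIF and LIF in Nat1-null cells (vertical axis) against that in wild-type cells (horizontal axis), 1 point per member, coloured by the call of the difference between the 2 responses; the dashed line marks equal responses. The 23 blue members lie below the line, with Ldhb at -0.75 in Nat1-null and 2.19 in wild-type cells, and 5 red members above it.

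For 8 members more than 1 probe passed the filter, and the brightest was used. Probes of a gene had the same sign in every comparison except Pfkp for 2i in Nat1-null cells (-0.12 and 0.05). Gapdh has 7 probes. For 2i in wild-type cells they ran between 0.40 and 0.88 and all 7 were called, and for genotype in LIF they ran between 0.09 and 0.59 and 5 were called. The brightest Gapdh probe gave the smallest difference in both. For Pfkp the difference for genotype in LIF was 2.33 by the brighter probe and 1.26 by the other, and for Ldha its 3 probes ran between 1.21 and 1.83. For genotype in 2i+LIF Pfkp gave 0.70 by the brighter probe and 0.20 by the other, which was not called.

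**Figure D4:**
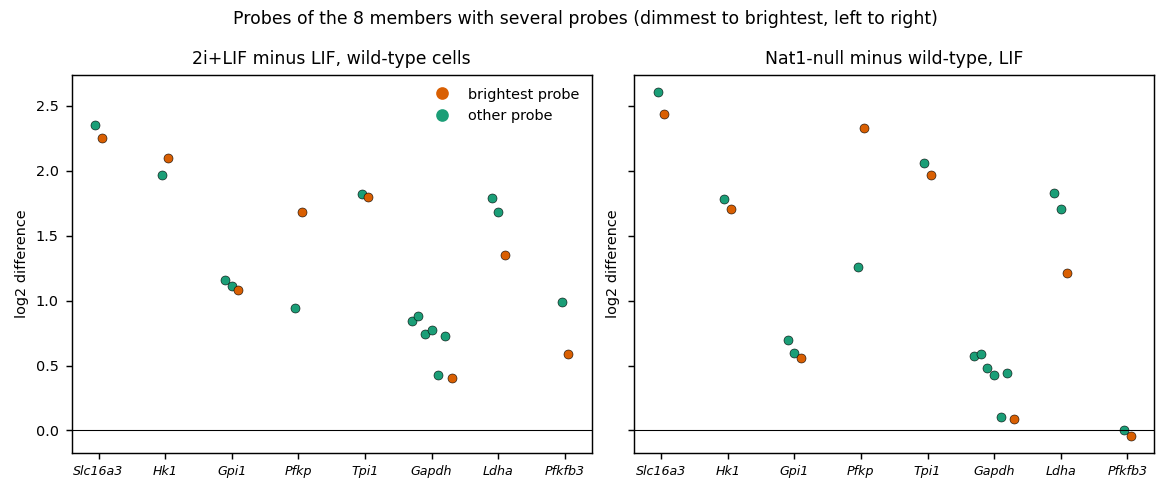
Log2 difference (vertical axis) of each probe of the 8 members with several probes (horizontal axis; probes of a gene from dimmest to brightest), for 2i+LIF minus LIF in wild-type cells (left) and Nat1-null minus wild-type in LIF (right). The brightest Gapdh probe, in orange, gave the lowest of 7 values in each panel, 0.40 and 0.09.

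Neighbouring pathways were counted from lists of other genes, to be read against the shares of all genes, 35.0% higher and 27.2% lower for 2i in wild-type cells and 33.9% higher and 32.9% lower for genotype in LIF. For 2i in wild-type cells, 13 of 17 genes of the tricarboxylic acid cycle rose (76.5%) and 1 fell (5.88%) (median 0.32), with Idh2, mitochondrial isocitrate dehydrogenase, at 1.35 ± 0.06 (adjusted p = 7.9e-08). In Nat1-null cells 6 of the 17 rose with 2i (35.3%, against 21.4% of all genes) and 2 fell. For genotype in 2i+LIF 2 rose and 7 fell (41.2%, against 22.6% of all genes), and in LIF 7 rose (41.2%) and 5 fell (29.4%). Among 15 genes of gluconeogenesis and glycogen, 10 rose (66.7%) and 2 fell (13.3%) with 2i in wild-type cells, and 8 rose (53.3%) and 2 fell (13.3%) with genotype in LIF, where Gys1, glycogen synthase, had 2.57 ± 0.15 (adjusted p = 2.6e-07). The 17 measured other glycolysis genes, mostly forms of other tissues, were split, with 7 higher and 7 lower (41.2% each) for 2i in wild-type cells and 5 higher (29.4%) and 8 lower (47.1%) for genotype in LIF. Of 9 other pentose phosphate genes, 3 rose with 2i in wild-type cells (33.3%) and 6 were not called, and 1 rose (11.1%) and 4 fell (44.4%) with genotype in LIF. The 9 genes of pyruvate entry gave 2 higher and 2 lower (22.2% each) in the first of these comparisons, and 4 higher (44.4%) and 3 lower (33.3%) in the second, shares near those of all genes. Of 5 serine branch genes 2 rose and 2 fell with 2i in wild-type cells, and Phgdh, the first enzyme of serine synthesis, was lower in Nat1-null cells, with differences of -1.48 ± 0.17 (adjusted p = 9.4e-05) in 2i+LIF and -1.98 ± 0.17 (adjusted p = 3.9e-06) in LIF.

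Among 14 measured hypoxia-induced genes outside glycolysis, 9 rose (64.3%) and 1 fell (7.14%) with 2i in wild-type cells (median 1.35), and 10 rose (71.4%) and 2 fell (14.3%) with genotype in LIF (median 1.05). For genotype in 2i+LIF 6 were higher (42.9%, against 21.0% of all genes), and in Nat1-null cells 6 rose with 2i (42.9%, against 21.4%). Ndufa4l2, a mitochondrial protein gene induced by hypoxia, differed by 5.15 ± 0.21 (adjusted p = 5e-08) with 2i in wild-type cells and by 5.86 ± 0.21 (adjusted p = 1e-08) with genotype in LIF, and Bnip3, of mitophagy, by 2.64 ± 0.21 (adjusted p = 3.9e-06) and 2.58 ± 0.21 (adjusted p = 2.7e-06). The interaction was lower for 9 of the 14 (64.3%, against 26.2% of all genes). Of 18 regulators of glycolytic genes, 8 rose (44.4%) and 5 fell (27.8%) with 2i in wild-type cells, near the shares of all genes, and 11 rose (61.1%) and 4 fell (22.2%) with genotype in LIF. Egln3, a prolyl hydroxylase that marks hypoxia-inducible factors for destruction and is itself induced by them, had 3.28 ± 0.17 (adjusted p = 8.9e-08) with genotype in LIF. Lin28b, an RNA-binding protein, was lower in Nat1-null cells, with differences of -2.89 ± 0.15 (adjusted p = 7.2e-07) in 2i+LIF and -3.10 ± 0.15 (adjusted p = 7.4e-08) in LIF. Lin28a, its paralog, had -2.34 ± 0.12 (adjusted p = 1.7e-07) with 2i in wild-type cells. The part of these genes in the members' differences was not tested.

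**Figure D5:**
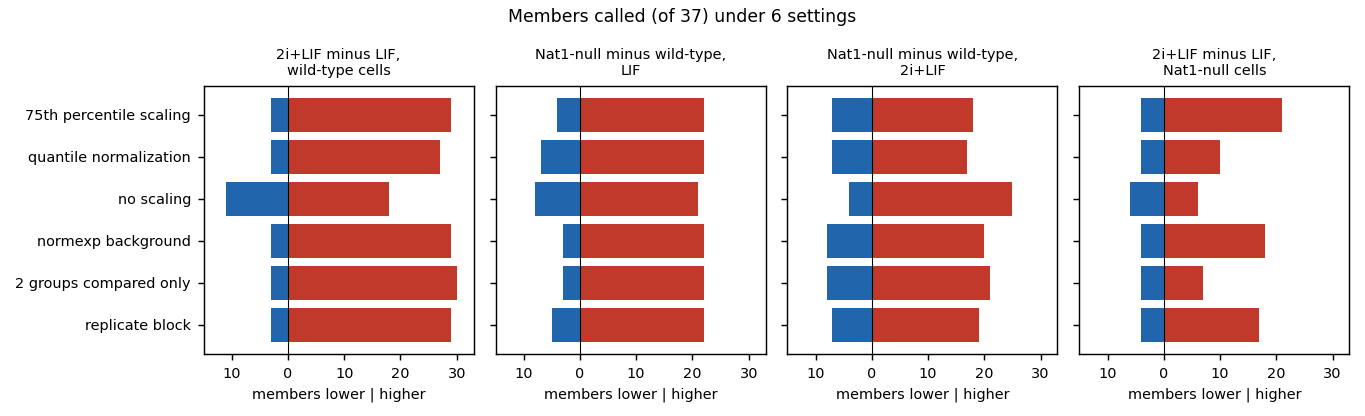
Number of the 37 members called higher (red, to the right of 0) and lower (blue, to the left) in 4 comparisons (panels) under 6 settings (rows). Scaling moved the counts most: for 2i in wild-type cells 29 higher became 18 without scaling, and for 2i in Nat1-null cells 21 became 6.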

How the data were processed

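Total RNA of 12 samples was measured on Agilent arrays, 1 dye (Cy3) each. The intensity values used were deposited as scanner output of Agilent Feature Extraction 10.7.3.1, background-subtracted within each array, per the file headers. The authors' deposited table holds log2 values of that signal relative to each array's 75th percentile, by its match with the scanner values; it served as an alternative.

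Control spots and outlier spots were left out, spots of a probe averaged on the log2 scale and the 75th percentile subtracted. Probes were kept where every array of some group was well above background (52 of 53 member probes), and the probe with the highest mean stood for a gene. RefSeq accessions, through an annotation of assembly GRCm38.p6, gave 27650 of 55681 probes a symbol. limma 3.58.1 in R 4.3.3 fitted 4 group means over all 12 arrays, with Benjamini-Hochberg adjustment over 24457 genes per contrast, two-sided. Simulated data for the 2i comparison in wild-type cells (24457 genes) had 100 genes changed at each of 2 sizes. The fit recovered 75% of genes changed by 1 and 91% of genes changed by 2 on the log2 scale. Far more genes were called in the real data, so these shares do not give the power there. Tables used pandas 2.3.3 and numpy 2.4.6 in Python 3.11.15, and figures matplotlib 3.10.9. The number of arrays limits the precision. The labels number replicates alike in each group and do not say whether same-numbered samples are paired. Residuals of same-numbered arrays correlated above 0.1 in 1 of 18 pairs, replicate 2 of Nat1-null LIF with replicate 2 of Nat1-null 2i+LIF (0.301).

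All members are named. Per-array values were given for a list of 20 members and for the 3 largest called rises and falls of each comparison; other lists name at most 2 called genes per comparison. Members, lists and this rule were chosen with earlier results of these data known. Settings tried were the scaling, background correction, probe filter and choice, variance model, blocks and leaving out each array.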

Additional observations from a re-analysis of the deposited data

Results flagged for a closer look

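The 2i response differed between genotypes, by the interaction test in limma at adjusted p below 0.05, for 28 of the 37 members. Of these, 23 were lower and 5 higher, while over all genes 26.2% were lower and 23.6% higher. All values are the log2 difference between 2i+LIF and LIF in Nat1-null cells minus that in wild-type cells. The carriers had -1.50 for Slc2a3, -0.35 for Slc16a1 and -1.79 for Slc16a3. In upper glycolysis the values were -1.18 for Hk1, -0.94 for Hk2, -0.55 for Gpi1, -1.21 for Pfkl, -1.64 for Pfkp, -0.88 for Aldoa, -2.36 for Aldoc and -1.43 for Tpi1, while Pfkm had 0.43. In lower glycolysis they were -0.88 for Pgk1, -0.66 for Pgam1, -0.46 for Eno1, -1.38 for Eno2 and -1.06 for Pkm, with 1.15 for Pgam2 and 1.31 for Eno3. Lactate dehydrogenase had -0.88 for Ldha and -2.95 for Ldhb, and the pyruvate dehydrogenase kinases had -0.70 for Pdk1, -1.02 for Pdk2 and -1.19 for Pdk4. Fructose bisphosphate enzymes had 0.43 for Pfkfb2, 0.86 for Fbp1 and -0.70 for Fbp2, and Tkt had -0.39. The calls of Eno2, Pfkfb2, Pfkm and Tkt ended when 1 array was left out (8, 8, 11 and 7 of the 12 arrays had this effect). Without any 1 array 24 of 28 remained, a share that was not counted over all genes. Groups hold 3 arrays, too few to flag single arrays. Slides and genotypes cannot be told apart here, and the wild-type media lay on different slides while the Nat1-null arrays shared a slide. A difference between the wild-type slides would enter every value of the interaction.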

How the results depend on the processing

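With 3 arrays per group and 26 other settings, counts of members called higher and lower were compared with those reported. Without scaling, the counts were 18 and 11 for 2i in wild-type cells, 8 lower for genotype in LIF, 4 lower for genotype in 2i+LIF, 6 higher for 2i in Nat1-null cells, and 10 and 15 for the interaction; the median of all genes then moved by -0.57, -0.15, 0.22, -0.19 and 0.37 in these comparisons. For 2i in wild-type cells that setting turned the direction of Slc2a1 (-0.25), Slc16a1 (-0.19), Gapdh (-0.17), Pdk1 (-0.32), Pdk3 (-0.17), Pfkfb1 (-0.13), Pfkfb4 (-0.50), Fbp2 (-0.44), G6pdx (-0.48), Pgd (-0.44) and Taldo1 (-0.29), and for the interaction that of Slc16a1 (0.03) and Taldo1 (0.34). Quantile normalization gave 7 lower for genotype in LIF (33.1% of all genes), 10 higher for 2i in Nat1-null cells (16.2%) and 3 higher for the interaction (24.1%). With no filter on dim probes (more genes tested) the interaction had 3 higher (14.9% of all genes). With only the groups compared (6 arrays) 2i in Nat1-null cells raised 7 (10.8% of all genes). Other causes were not tested. Apart from leaving out 1 array, the remaining counts moved by at most 1.5 times.

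With a replicate block, counts higher and lower were 29 and 3 for 2i in wild-type cells, against 34.8% and 27.2% of all genes. They were 22 and 5 for genotype in LIF (33.6% and 32.8%), and 19 and 7 for genotype in 2i+LIF (20.5% and 22.3%). For 2i in Nat1-null cells they were 17 and 4 (20.4% and 15.5%), and for the interaction 5 and 24 (23.3% and 25.7%). Residuals of same-numbered arrays correlated above 0.1 only for replicate 2 of Nat1-null LIF with replicate 2 of Nat1-null 2i+LIF (0.30).

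Leaving out 1 array gave 26 to 29 higher and 3 to 3 lower, 22 to 23 and 3 to 6, 14 to 22 and 5 to 8, 13 to 22 and 4 to 5, and 3 to 6 and 21 to 24 in that order. The 13 came without Nat1-null LIF replicate 3 or Nat1-null 2i+LIF replicate 3. The 3 came without replicate 1 or 3 of either Nat1-null group, replicate 2 or 3 of wild-type 2i+LIF, and replicate 1 or 2 of wild-type LIF. Of 136 member calls in the 5 comparisons, 112 held without any 1 array, and 10 of the 24 lost were for 2i in Nat1-null cells (Aldoa, Eno1, Gapdh, Hk2, Pdk4, Pgam1, Pgd, Pgk1, Slc16a3 and Tpi1). Calls that held were not counted over all genes. Signal over background limited Fbp2, near background on 1 array.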
